A study of Solanum lycopersicum with 24 samples.

Results

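The genes described here are 10 genes of anthocyanin and flavonoid synthesis in tomato leaves, out of 34075 genes in the count files. They were taken by gene ID and selected on these data: the late steps were listed because their levels stood higher in leaves of the rs2z35 mutant than of wild type (WT) under control conditions. The values of that comparison are therefore given without a test. The early steps are CHS1 (Solyc09g091510) and CHS2 (Solyc05g053550), which encode chalcone synthases, and F3H (Solyc02g083860), which encodes flavanone 3-hydroxylase. The late steps are F3'5'H (Solyc11g066580, flavonoid 3',5'-hydroxylase), DFR (Solyc02g085020, dihydroflavonol 4-reductase), ANS (Solyc08g080040, anthocyanidin synthase), 3GT (Solyc10g083440, a 3-glucosyltransferase) and an anthocyanin acyltransferase (Solyc12g088170). The regulators are the bHLH factor AN1 (Solyc09g065100) and the MYB factor AN2-like (Solyc10g086290).

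Leaves of 4 genotypes were compared, each with 3 libraries under heat stress (HS, 40°C) and 3 under control conditions (25°C), both for 1 h. The genotypes were rs2z35, with a knockout of RS2Z35, rs2z36, with a knockout of RS2Z36, the double mutant rs2z35 36, and WT, all in cultivar Moneymaker. RS2Z35 and RS2Z36 are serine/arginine-rich proteins of a plant-specific clade that act in pre-mRNA splicing. According to the study's methods the mutants carry CRISPR-Cas9 indels of a single nucleotide that lead to premature stop codons, and the double mutant came from a cross of the single mutants. The leaves were excised from plants 6 weeks of age, so that control leaves were detached as well, and leaves were pooled. The study's methods call the 3 replicates biological and name 6 plants, without saying how plants or days were divided among replicates, so that the p-values measure the spread between these libraries.

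Chalcone synthase makes the chalcone from which all flavonoids derive, and F3H carries the flavanone on to dihydroflavonol, from which flavonols and anthocyanins branch. The late enzymes turn dihydroflavonols into coloured anthocyanidins, which are then glycosylated, acylated and moved to the vacuole. In plants of the nightshade family the late steps are switched on by a complex of a MYB factor, a bHLH factor such as AN1 and a WD40 protein, and anthocyanins colour leaves and stems exposed to strong light or cold.

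Libraries held 16853134 to 23929283 counted reads in HS and 18692423 to 22517273 in control, and levels are counts relative to library size (CPM) after TMM scaling over all 24 libraries. The deposited HS counts had been adjusted by the authors with ComBat-Seq and the control counts had not, so that values of HS and control libraries differ in how they were made. All 6 leaf markers listed (genes for Rubisco small subunits and chlorophyll-binding proteins) were above 1 CPM in every group, and the pollen marker did not exceed 0.142 CPM in any library. Transcripts of RS2Z35 averaged 32.7 ± 1.15 CPM in rs2z35 control and 31.3 ± 0.859 CPM in rs2z35 36 control, against 193 ± 10.9 CPM in WT control, and transcripts of RS2Z36 averaged 38.7 ± 5.38 CPM in rs2z36 control, against 57.6 ± 5.68 CPM in WT control (SD, n = 3 each). In these pooled leaves, fewer cells that make a transcript cannot be told apart from less of it per cell.

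Under control conditions the late steps stood in the same order of genotypes for 5 of 5 genes, with the highest mean in rs2z35, then rs2z36, then rs2z35 36, and the lowest in WT. The place of rs2z35 above WT in this order follows from the choice of the late steps. That choice also favours genes that were low in WT, and so the place of WT below the other mutants. The order was not tested. No share of all genes with this order is given. DFR, the reductase at the entry to the anthocyanin branch, had 4.46, 4.54 and 3.85 CPM in the rs2z35 replicates, 2.68, 4.41 and 3.49 CPM in rs2z36 and 2.47, 1.93 and 2.45 CPM in rs2z35 36, against 1.25, 1.03 and 0.974 CPM in WT. Every library of the mutants was above every WT library, rs2z35 overlapped with rs2z36, and rs2z36 did not overlap with the double mutant. The acyltransferase, which adds an acyl group to the anthocyanin's sugar, had 3.92, 3.31 and 3.89 CPM in rs2z35, 2.16, 2.29 and 2.16 CPM in rs2z36 and 1.51, 2.42 and 1.96 CPM in rs2z35 36, against 0.984, 0.856 and 0.649 CPM in WT. Again no mutant library fell to the WT range, rs2z35 lay above the other mutants, and rs2z36 overlapped with rs2z35 36.

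ANS, the oxygenase that forms the anthocyanidin, had 9.07, 7.51 and 8.09 CPM in rs2z35, 5.53, 6.91 and 5.16 CPM in rs2z36 and 5.22, 5.02 and 4.61 CPM in rs2z35 36, against 3.60, 3.89 and 2.64 CPM in WT. The groups overlapped only between rs2z36 and rs2z35 36. F3'5'H, the hydroxylase that directs the pathway to delphinidin-type pigments, had 1.40, 1.69 and 1.72 CPM in rs2z35, 1.04, 1.25 and 0.802 CPM in rs2z36 and 0.558, 0.529 and 0.815 CPM in rs2z35 36, against 0.643, 0.357 and 0.162 CPM in WT. Both single mutants were above the WT range and the double mutant overlapped with it, at 4 to 17 reads per WT library. 3GT, which attaches glucose to the anthocyanidin, had 2.40, 2.77 and 3.25 CPM in rs2z35, 2.16, 2.71 and 2.47 CPM in rs2z36 and 2.39, 2.34 and 2.24 CPM in rs2z35 36, against 2.73, 1.89 and 1.14 CPM in WT. WT replicate 1 lay within the range of the mutants, and all neighbouring groups overlapped.

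**Figure D1:**
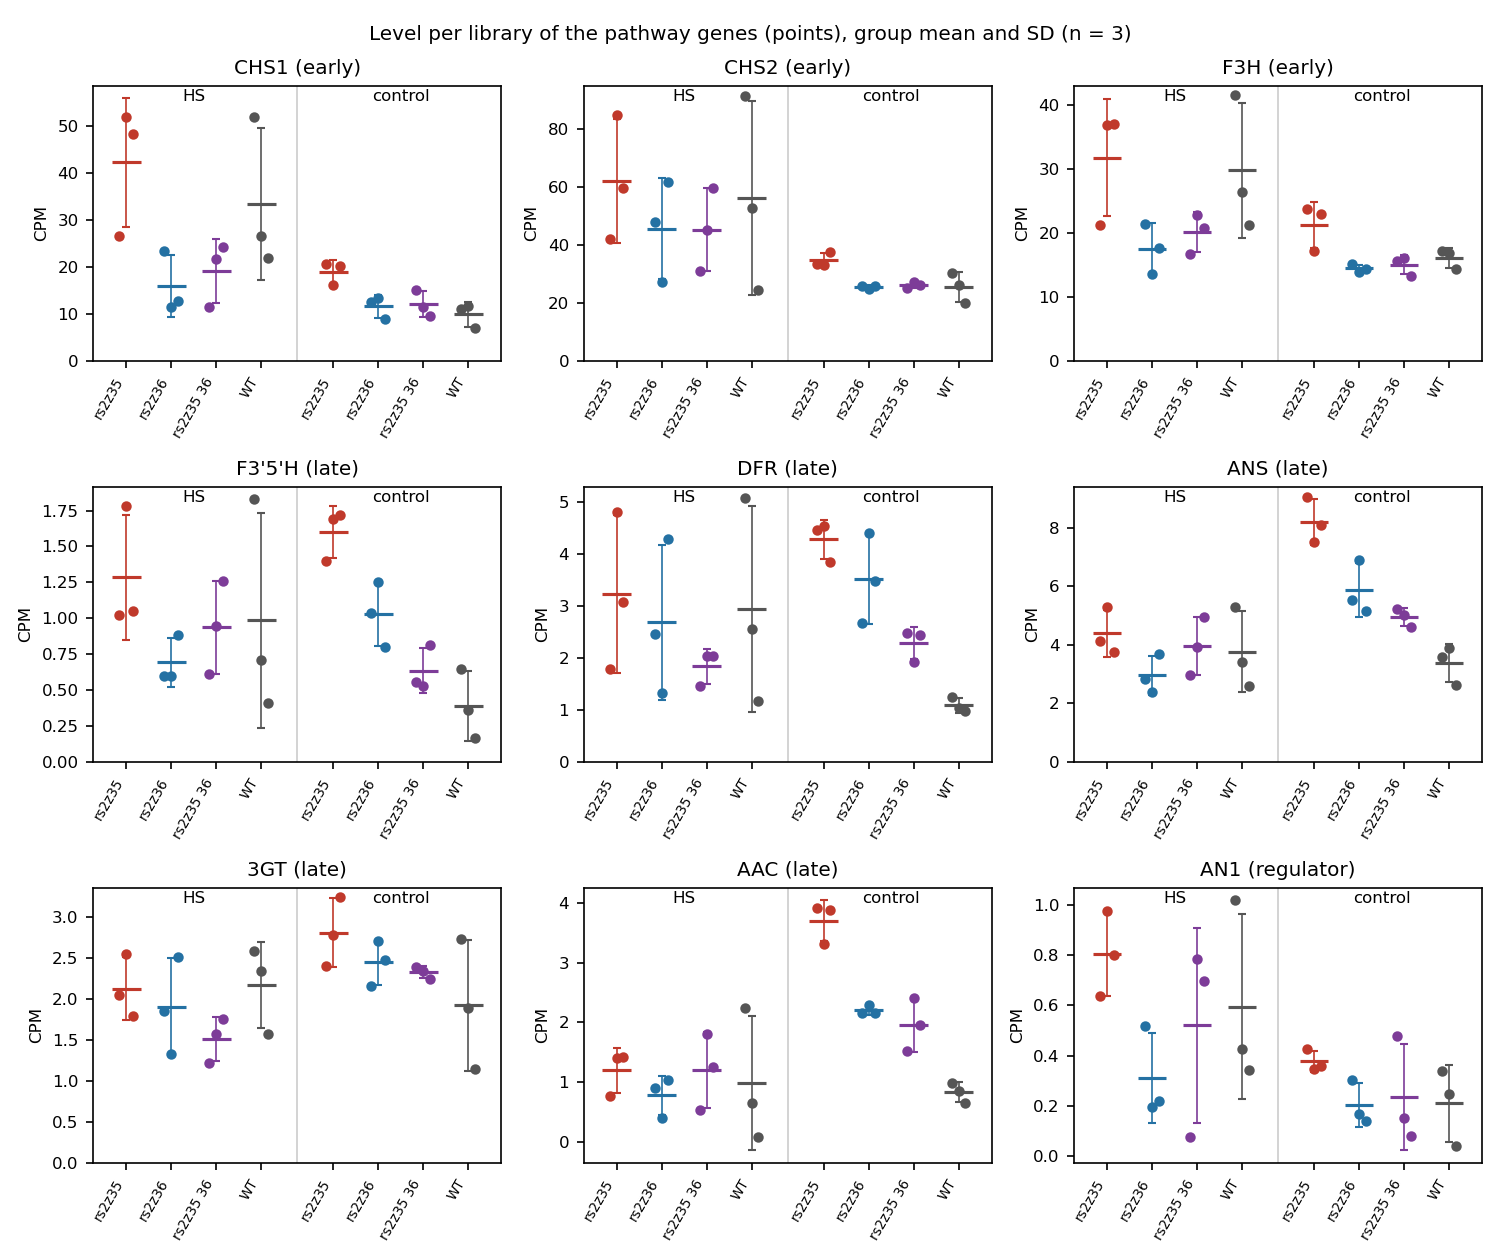
Level of 9 pathway genes in CPM in each library (points), with group mean (line) and SD (bar, n = 3), for rs2z35, rs2z36, rs2z35 36 and WT under HS (left of the grey line) and control (right). DFR in control lay between 1.93 and 4.54 CPM in the mutants, above 0.974 to 1.25 CPM in WT, whereas the HS groups overlapped.

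The log2 fold change (log2FC) of rs2z35 against WT in control, the comparison that led to the choice, was 2.15 for the acyltransferase, 2.03 for F3'5'H, 1.98 for DFR, 1.28 for ANS and 0.55 for 3GT. F3'5'H stood at 2.58 when WT replicate 1 was left out and at 1.68 when WT replicate 3 was left out. For 7 of the 9 genes with enough reads the rs2z35 libraries all lay above WT, beside 9.03% of all tested genes. Since this comparison led to the choice, the shares are a description and no test. AN1 was among the 7 only at 0.347 CPM in the lowest rs2z35 library against 0.341 CPM in the highest WT library, with 9 reads in either. Epidermis markers moved in the same direction, the summed level of all 3 being 215 to 260 CPM in rs2z35 and 178 to 192 CPM in WT, and none of them was at 0. In rs2z36 and rs2z35 36 control the epidermis sum was 185 to 224 and 162 to 222 CPM, overlapping with WT. The summed level of 8 trichome markers was 297 to 349 CPM in rs2z35 control, against 304 to 343 CPM in WT control. The part of either list in the levels of the pathway genes was not tested.

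The rs2z36 mutant and the double mutant were compared with WT in edgeR's quasi-likelihood test on the 12 control libraries, with p-values adjusted over 23532 genes after Benjamini and Hochberg and a call at an absolute log2FC above 1 with an adjusted p below 0.01. All mutants share the same 3 WT libraries, which also entered the choice of the genes, so that these comparisons are not independent of it. That choice favours late steps that were low in these WT libraries, which biases their log2FC upward and their p-values downward. The p-values, calls and shares of the late steps are therefore given as a description. In rs2z36, 1 of 9 members was called, against 0.187% of all genes. DFR rose, with a log2FC of 1.70 ± 0.21 (SE) and an adjusted p of 0.00225 in edgeR. The call was lost without WT replicate 1, 2 or 3 in turn, at adjusted p-values of 0.0126, 0.0233 and 0.0197, with a log2FC between 1.63 and 1.81.

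The other late steps of rs2z36 did not pass. The acyltransferase had a log2FC of 1.40 ± 0.22 (edgeR adjusted p = 0.0103), ANS 0.79 ± 0.16 (edgeR adjusted p = 0.0429), F3'5'H 1.38 ± 0.38 (edgeR adjusted p = 0.132) and 3GT 0.35 ± 0.25 (edgeR adjusted p = 0.567). Unadjusted p-values were below 0.05 for 4 of the 5 late steps, all higher in rs2z36, beside 7.88% of all genes. These 4 were also the members without overlap, against 9.42% of all genes. Since the WT control libraries entered the choice of the late steps, both shares are a description and no test of an excess. Among the 8 trichome markers present in the files, Solyc08g005670 and Solyc08g005680 fell in rs2z36 control, with a log2FC of -6.66 and -5.39 (edgeR adjusted p = 3.65e-06 and 0.00125). They were named after their values were seen, and the other trichome markers are given only within the sum. The summed level of the trichome list was 240 to 285 CPM in rs2z36 and 304 to 343 CPM in WT, with 2 of the 8 genes at 0 in either group. Above 1 CPM were 3 of the 8 in rs2z36 and 5 in WT. How far the 2 named genes account for the lower sum was not examined. The leaf markers summed to 18912 to 21591 CPM in rs2z36 and 17173 to 18669 CPM in WT, without overlap. The part of either list in the result was not tested.

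In rs2z35 36, 0 of 9 members was called, against 0.174% of all genes in edgeR. The acyltransferase had a log2FC of 1.23 ± 0.22 (edgeR adjusted p = 0.0150), DFR 1.06 ± 0.22 (edgeR adjusted p = 0.0271) and ANS 0.55 ± 0.16 (edgeR adjusted p = 0.115). These were the 3 late steps with an unadjusted p below 0.05 and the 3 members that did not overlap with WT. Of all genes 9.11% and 12.5% were higher by these measures. Here too the shares are a description, since the WT control libraries entered the choice. Without WT control replicate 1 the count with an unadjusted p below 0.05 was 5. The summed level of the trichome list was 243 to 267 CPM in rs2z35 36 control, against 304 to 343 CPM in WT control, and its part in the levels was not tested. DESeq2 called 2 of the 9 members, beside 147 of 23532 genes. F3'5'H and 3GT stood at 0.69 and 0.27. The median over the 5 late steps was 0.69, against 1.38 in rs2z36, and 0.0023 over all genes tested in rs2z35 36.

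**Figure D2:**
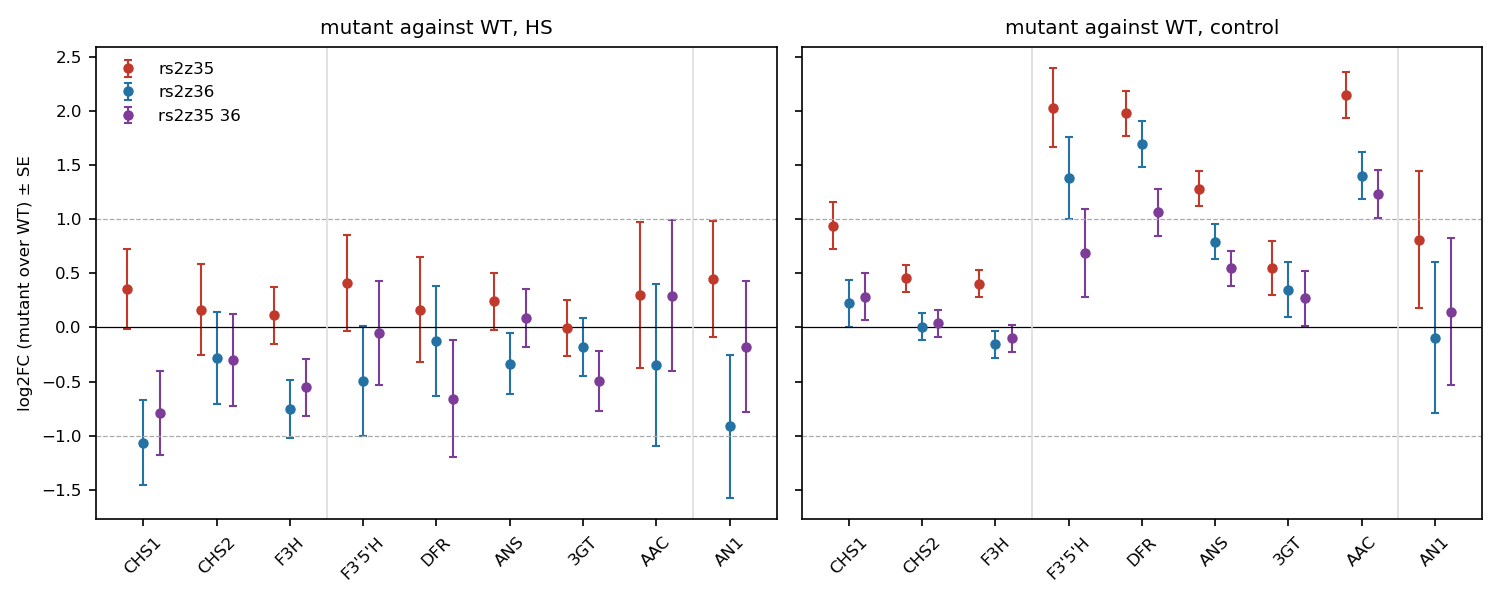
Log2FC of rs2z35, rs2z36 and rs2z35 36 over WT with its SE (edgeR), in HS (left) and control (right), for early steps, late steps and AN1 (separated by grey lines). DFR had a log2FC of 0.16, -0.13 and -0.66 in HS, against 1.98, 1.70 and 1.06 in control.

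The early steps in control are given next. CHS1 had 20.6, 16.02 and 20.2 CPM in rs2z35, 12.5, 13.3 and 8.75 CPM in rs2z36 and 15.02, 11.5 and 9.58 CPM in rs2z35 36, against 11.1, 11.6 and 6.86 CPM in WT. CHS2 had 33.5, 33.1 and 37.7 CPM in rs2z35, 25.8, 24.6 and 25.97 CPM in rs2z36 and 25.01, 27.3 and 26.01 CPM in rs2z35 36, against 30.3, 26.2 and 19.8 CPM in WT. Both genes lay above WT in every rs2z35 library, and overlapped with WT in the other mutants. The same enzyme is encoded by both, and how reads of similar stretches were divided between them was not examined. F3H had 23.7, 17.1 and 22.9 CPM in rs2z35, 15.1, 13.9 and 14.3 CPM in rs2z36 and 15.6, 16.1 and 13.3 CPM in rs2z35 36, against 17.1, 16.8 and 14.3 CPM in WT, with overlap in all 3 comparisons. In rs2z36 the log2FC of CHS1, CHS2 and F3H was 0.22, 0.0044 and -0.16, and in rs2z35 36 it was 0.28, 0.037 and -0.10, none with an unadjusted p below 0.05. In rs2z35 the values were 0.94, 0.45 and 0.40, given without a test.

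The regulators among the members, AN1 and AN2-like, were close to the limit of detection. AN1, the bHLH partner of the MYB factors, had 0.426, 0.347 and 0.361 CPM in rs2z35, 0.302, 0.167 and 0.139 CPM in rs2z36 and 0.478, 0.151 and 0.0815 CPM in rs2z35 36, against 0.341, 0.250 and 0.0406 CPM in WT. These values rest on 1 to 12 reads per library, and the rs2z36 and rs2z35 36 libraries overlapped with WT. AN2-like, a MYB factor known to activate the late steps in tomato tissues that accumulate anthocyanin, had 0 reads in 21 of 24 libraries and 1 read in the other 3, and was not tested. A count of 0 allows a level of up to 0.105 to 0.236 CPM, depending on the library, for counting error only.

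Other genes assigned to the pathway were read as 4 lists. In the list of 5 further late and transport genes, 4 showed the same order of genotypes in control as the 5 late steps. The glycosyltransferase Solyc12g098590 averaged 6.85 ± 1.12 CPM in rs2z35, 4.92 ± 2.25 CPM in rs2z36, 3.40 ± 0.520 CPM in rs2z35 36 and 1.24 ± 0.896 CPM in WT (SD, n = 3 each). The glutathione S-transferase Solyc02g081340 averaged 4.83 ± 0.645 CPM in rs2z35, 3.23 ± 1.13 CPM in rs2z36, 2.69 ± 0.219 CPM in rs2z35 36 and 1.28 ± 0.382 CPM in WT (SD, n = 3 each). The anthocyanin permease Solyc03g025190 averaged 3.97 ± 1.02 CPM in rs2z35, 2.91 ± 0.859 CPM in rs2z36, 2.42 ± 0.533 CPM in rs2z35 36 and 1.32 ± 0.121 CPM in WT (SD, n = 3 each). In each of these the 3 mutants lay above WT without overlap, while neighbouring mutants overlapped. Groups above WT without overlap were found for 9.03% of all genes in rs2z35, 9.42% in rs2z36 and 12.5% in rs2z35 36. No share with all 3 mutants at once is given. The list was drawn up with earlier results of these data known and shares the WT libraries, so that it is no independent support.

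None of the 5 was called in rs2z36 or rs2z35 36 by edgeR, although 4 had an unadjusted p below 0.05 with a higher level in either mutant. For all genes this share was 7.88% in rs2z36 and 9.11% in rs2z35 36. The log2FC in rs2z36 was 1.99 for Solyc12g098590, 1.33 for Solyc02g081340 and 1.13 for Solyc03g025190 (edgeR adjusted p = 0.0505, 0.0405 and 0.0805). The glycosyltransferase Solyc09g059170 stood apart, with a log2FC of -0.91 in rs2z36 (edgeR adjusted p = 0.0224). Of the 13 tested genes on the list of phenylpropanoid steps, which supply the precursor of chalcone synthase, 0 was called in rs2z36 or rs2z35 36 control by edgeR. In rs2z36, 5 of the 13 were higher and 1 lower at an unadjusted p below 0.05, and in rs2z35 36, 0 was higher and 2 were lower. Of all genes 7.88% were higher and 6.21% lower in rs2z36 at this limit, and 9.11% and 7.88% in rs2z35 36. Neither the 4 tested genes of other flavonoid steps nor the 8 tested further regulators held a call in these comparisons. At an unadjusted p below 0.05, 1 and 2 of them were lower in rs2z36 and 0 and 0 in rs2z35 36. Levels of the further regulators differed widely. In WT control Solyc03g097340 averaged 25.6 CPM, Solyc08g081140 15.4 CPM and Solyc10g086250 0.784 CPM.

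Under HS no member was called in any mutant against WT, beside 0.0302% of all genes in rs2z35, 0.142% in rs2z36 and 0.19% in rs2z35 36. DESeq2 also called 0, beside 18 of 23162 genes in rs2z35, 75 in rs2z36 and 105 in rs2z35 36. DFR had 1.78, 4.81 and 3.08 CPM in rs2z35, 2.45, 1.32 and 4.28 CPM in rs2z36 and 1.45, 2.04 and 2.03 CPM in rs2z35 36, against 5.09, 2.56 and 1.16 CPM in WT. The WT libraries reached below the lowest and above the highest mutant library. The acyltransferase had 0.765, 1.41 and 1.42 CPM in rs2z35, 0.891, 0.396 and 1.03 CPM in rs2z36 and 0.534, 1.81 and 1.26 CPM in rs2z35 36, against 2.24, 0.639 and 0.0685 CPM in WT, where replicate 1 had 33 reads and replicate 3 had 1. ANS had 4.14, 5.30 and 3.76 CPM in rs2z35, 2.82, 2.38 and 3.69 CPM in rs2z36 and 2.97, 3.93 and 4.96 CPM in rs2z35 36, against 5.29, 3.41 and 2.60 CPM in WT. All 9 tested members overlapped with WT in all 3 mutants under HS. Groups without overlap were found for 7.18% (higher) and 7.18% (lower) of all genes in rs2z35, 10.3% and 11% in rs2z36 and 9.75% and 9.72% in rs2z35 36.

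F3'5'H had 1.02, 1.78 and 1.05 CPM in rs2z35, 0.594, 0.594 and 0.886 CPM in rs2z36 and 0.610, 0.943 and 1.26 CPM in rs2z35 36, against 1.83, 0.710 and 0.411 CPM in WT under HS. For 3GT the levels were 2.04, 2.54 and 1.79 CPM in rs2z35, 1.86, 1.32 and 2.51 CPM in rs2z36 and 1.22, 1.57 and 1.75 CPM in rs2z35 36, against 2.58, 2.34 and 1.57 CPM in WT. The order of genotypes seen in control was held by 0 of the 5 late steps under HS.

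For the early steps the lowest means under HS were those of rs2z36 and rs2z35 36. CHS1 had 26.5, 52.02 and 48.3 CPM in rs2z35, 23.5, 11.4 and 12.7 CPM in rs2z36 and 11.4, 21.7 and 24.3 CPM in rs2z35 36, against 51.9, 26.5 and 21.9 CPM in WT. F3H had 21.2, 36.9 and 37.1 CPM in rs2z35, 21.4, 13.5 and 17.6 CPM in rs2z36 and 16.6, 22.8 and 20.7 CPM in rs2z35 36, against 41.6, 26.4 and 21.3 CPM in WT. In rs2z36 CHS1 had a log2FC of -1.06 ± 0.39 (edgeR adjusted p = 0.211) and F3H -0.75 ± 0.27 (edgeR adjusted p = 0.197), and these 2 of 9 members had an unadjusted p below 0.05, beside 6.97% of all genes that were lower. The count was 0 without WT HS replicate 1 or rs2z36 HS replicate 2, and 1 without rs2z36 HS replicate 3. In rs2z35 and rs2z35 36 no member had an unadjusted p below 0.05, beside 8.56% and 14.2% of all genes, but 2 had in rs2z35 without WT HS replicate 1, and up to 3 in rs2z35 36 with a library left out. The trichome markers Solyc08g005670 and Solyc08g005680 fell in rs2z36 HS as well, with a log2FC of -5.45 and -6.31 (edgeR adjusted p = 0.00154 and 1.81e-05), and Solyc08g005680 in rs2z35 36 HS, with -1.79 (edgeR adjusted p = 0.00483). The summed level of the trichome list was 255 to 312 CPM in rs2z36, 280 to 329 CPM in rs2z35 36 and 304 to 370 CPM in WT, and that of the 6 leaf markers was 16901 to 19662 CPM in rs2z36 and 15041 to 20326 CPM in rs2z35 36, against 12698 to 14424 CPM in WT, without overlap. Of the 8 trichome markers 3 were above 1 CPM in rs2z36 HS, against 5 in rs2z35 36 HS and 5 in WT HS. The other trichome markers are given only within the sum, and the part of either list in the results was not tested. CHS2 had 42.2, 84.9 and 59.6 CPM in rs2z35, 48.02, 27.1 and 61.9 CPM in rs2z36 and 30.97, 45.04 and 59.7 CPM in rs2z35 36, against 91.5, 52.97 and 24.5 CPM in WT. AN1 had 0.637, 0.973 and 0.801 CPM in rs2z35, 0.520, 0.198 and 0.222 CPM in rs2z36 and 0.0763, 0.786 and 0.699 CPM in rs2z35 36, against 1.02, 0.426 and 0.342 CPM in WT. For both genes the libraries of every mutant overlapped with those of WT.

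HS was then compared with control within each genotype, on 6 libraries each. In rs2z36 all 5 late steps had a negative log2FC under either scaling, and the 3 early steps a positive one that held with total counts for CHS2 but not for CHS1 and F3H, while 48% of all genes had a positive value under TMM. The acyltransferase fell, with a log2FC of -1.52 ± 0.32 and an adjusted p of 0.00389 in edgeR, the only call among 9 members, where 22.7% of all genes were called. The call was lost without rs2z36 control replicate 1 or 2 or rs2z36 HS replicate 1, at adjusted p-values of 0.0106, 0.0142 and 0.0149. Without rs2z36 control replicate 3 or rs2z36 HS replicate 3 ANS was called as well, and without rs2z36 HS replicate 2 CHS2 was. With all libraries ANS had -0.98 ± 0.21 (edgeR adjusted p = 0.00424), just short of the limit on log2FC, and CHS2 had 0.84 ± 0.25 (edgeR adjusted p = 0.0183). With the replicate number as a block the acyltransferase had -1.53 and an adjusted p of 0.0108 in edgeR.

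In rs2z35 36 no member was called by edgeR, against 25.1% of all genes, although 4 of 9 had an unadjusted p below 0.05, as had 62.4% of all genes. DESeq2 called 0 members, beside 5511 of 22570 genes. CHS2 had a log2FC of 0.81 ± 0.19 (edgeR adjusted p = 0.00320), CHS1 0.69 ± 0.25 (edgeR adjusted p = 0.0334), F3H 0.44 ± 0.14 (edgeR adjusted p = 0.0176) and 3GT -0.60 ± 0.23 (edgeR adjusted p = 0.0436). Without rs2z35 36 HS replicate 1, the lowest HS library for 9 of 9 members, CHS2 was called. In rs2z35, whose control libraries led to the choice, the values are a description only. CHS1, CHS2 and F3H stood at 1.17, 0.85 and 0.59, AN1 at 1.09, and the acyltransferase, ANS, 3GT, DFR and F3'5'H at -1.61, -0.89, -0.39, -0.39 and -0.30.

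In WT all 9 tested members had a positive log2FC with TMM scaling and 6 of 9 with total counts, with a median of 1.15 beside -0.028 over all genes under TMM, and 1 of 9 was called in edgeR, against 25.1% of all genes. A positive log2FC was found for 48.6% of all genes. The WT control libraries had served in the choice of the genes, which limits what the WT comparison shows for the late steps. CHS1 rose, with a log2FC of 1.77 ± 0.31 and an adjusted p of 8.84e-04 in edgeR. F3H had 0.90 ± 0.21 (edgeR adjusted p = 0.00440), short of the limit on log2FC, CHS2 had 1.15 ± 0.37 (edgeR adjusted p = 0.0231) and DFR had 1.44 ± 0.44 (edgeR adjusted p = 0.0181). Without WT HS replicate 3, the lowest of the HS libraries, 4 members were called, namely CHS1, CHS2, F3H and DFR, and with the replicate number as a block 3 were. Without WT HS replicate 1, the highest, CHS1 stayed called at 1.31, while DFR had 0.79 (edgeR adjusted p = 0.0967), CHS2 0.63 (edgeR adjusted p = 0.0987) and F3H 0.59. ANS, 3GT and the acyltransferase had a log2FC of 0.16, 0.18 and 0.25, with overlap between HS and control.

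Some of these signs turned with the scaling. With total counts in place of TMM the median log2FC of all genes shifted to between -0.79 and -0.70 in the 4 genotypes, CHS1 in WT had 1.00 (edgeR adjusted p = 0.0138), and CHS1 and F3H turned to -0.027 and -0.29 in rs2z35 36 and to -0.22 and -0.41 in rs2z36. ANS, 3GT and the acyltransferase in WT turned to -0.60, -0.58 and -0.51. The summed level of the 3 epidermis markers was also lower in HS, at 134 to 182 CPM over the 12 HS libraries, against 162 to 260 CPM over the 12 control libraries, and its part in the levels of the pathway genes was not tested.

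**Figure D3:**
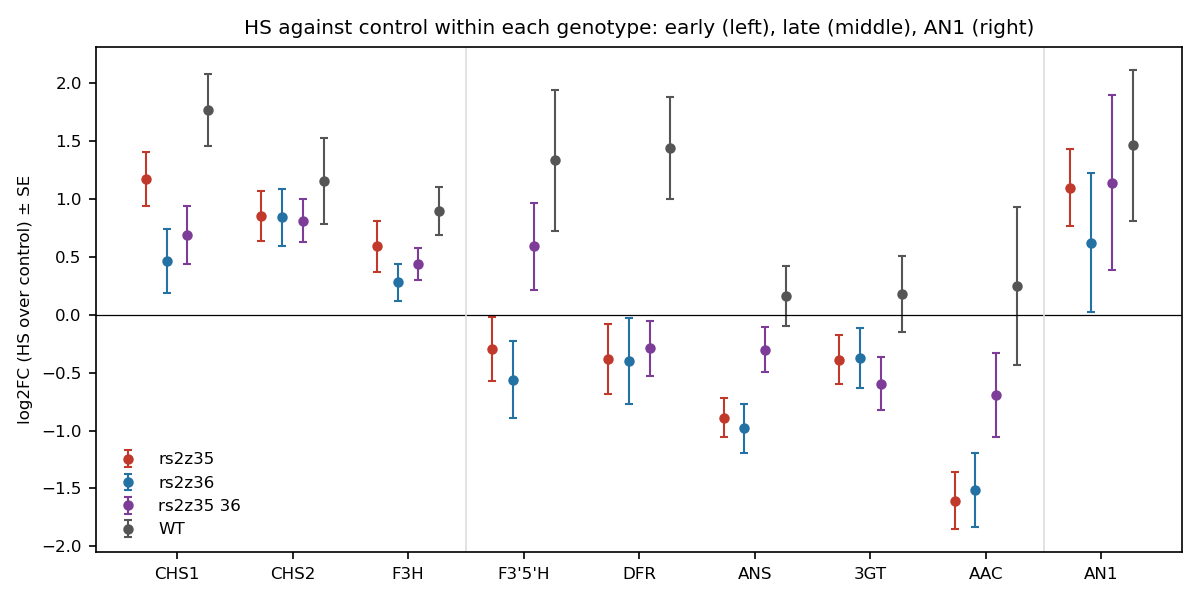
Log2FC of HS over control with its SE (edgeR) for 9 pathway genes in rs2z35, rs2z36, rs2z35 36 and WT. The 3 early steps lay above 0 in every genotype with TMM scaling, though F3H in the 3 mutants and CHS1 in rs2z36 and rs2z35 36 did not with total counts, whereas the acyltransferase lay at -1.61 in rs2z35, -1.52 in rs2z36 and -0.69 in rs2z35 36, against 0.25 in WT.

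Whether the HS change itself differed from WT was tested with an interaction term over the 24 libraries, for rs2z36 and rs2z35 36. Both terms use the same 6 WT libraries, and the WT control libraries had served in the choice of the late steps as lower in WT, which biases their terms downward. None of the 9 members was called in edgeR (0 in either mutant), against 0.106% and 0.0407% of all genes. DESeq2 called 0 as well, beside 43 and 31 of 24583 genes. In rs2z36 ANS had -1.14 ± 0.33 (edgeR adjusted p = 0.269), DFR -1.84 ± 0.58 (edgeR adjusted p = 0.343), F3'5'H -1.89 ± 0.65 (edgeR adjusted p = 0.412), CHS1 -1.30 ± 0.48 (edgeR adjusted p = 0.465) and the acyltransferase -1.77 ± 0.75 (edgeR adjusted p = 0.524). These 5 members had an unadjusted p below 0.05, beside 5.14% of all genes with a negative term. In rs2z35 36 DFR had -1.74 ± 0.60 (edgeR adjusted p = 0.379) and CHS1 -1.09 ± 0.48 (edgeR adjusted p = 0.528), 2 members beside 4.85% of all genes. Without WT HS replicate 1 these counts were 2 in rs2z36 and 0 in rs2z35 36. The terms were then -1.17 for DFR, -1.07 for F3'5'H, -0.83 for CHS1 and -0.28 for the acyltransferase in rs2z36, and -1.07 for DFR and -0.62 for CHS1 in rs2z35 36. In rs2z35 36 the count was 6 without WT HS replicate 3, and 1 without WT control replicate 3, rs2z35 36 control replicate 1 or rs2z35 36 HS replicate 1.

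Early and late steps were set against each other within each library, as the mean log2 CPM of the 5 late steps minus that of the 3 early steps, each relative to the WT control mean. Under HS the difference was -0.62 ± 0.23 in rs2z35, -0.19 ± 0.36 in rs2z36 and -0.24 ± 0.0376 in rs2z35 36, against -0.75 ± 0.27 in WT (SD, n = 3 each). Under control conditions it was 0.94 ± 0.15 in rs2z35, 1.05 ± 0.18 in rs2z36 and 0.66 ± 0.20 in rs2z35 36 (SD, n = 3 each), against a range of -0.10 to 0.18 in WT. No mutant control library lay in the WT range. All 4 genotypes had a lower value in HS than in control, and only 1 of the 12 HS libraries, of rs2z36, was above 0. These are descriptions without a test, since the contrast of early with late steps was part of the choice. The early steps alone averaged 1.42 in rs2z35 HS, 0.51 in rs2z36 HS and 0.67 in rs2z35 36 HS on this scale, against 1.16 in WT HS, and 0.61 in rs2z35 control, 0.037 in rs2z36 control and 0.087 in rs2z35 36 control.

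**Figure D4:**
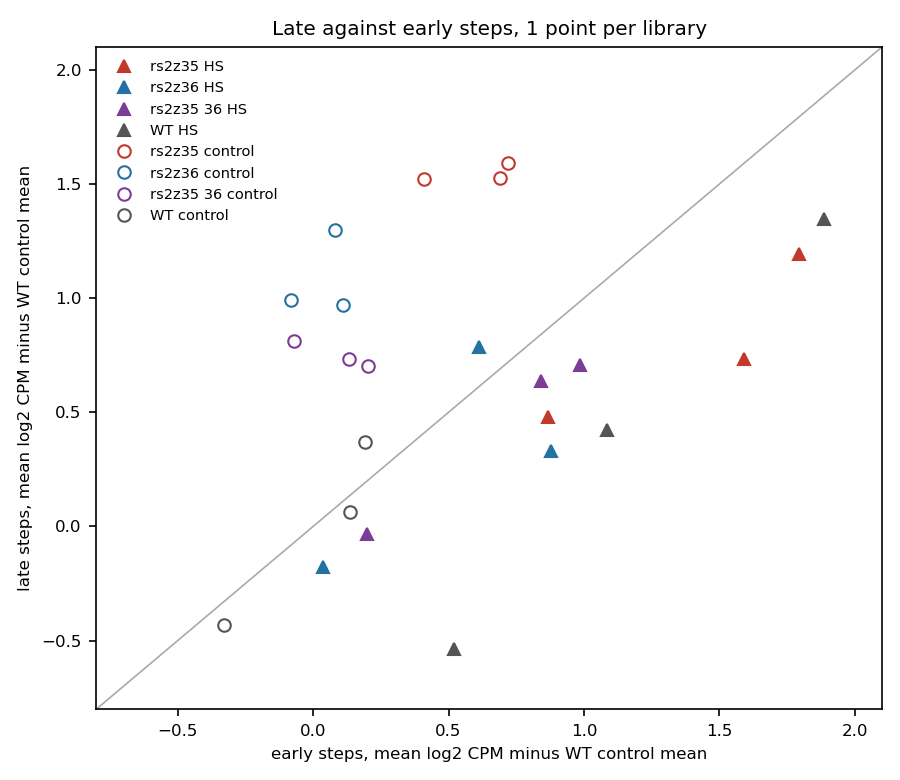
Mean log2 CPM of the 5 late steps (vertical) against that of the 3 early steps (horizontal), both minus the WT control mean, with 1 point per library, filled triangles for HS and open circles for control. Of the 12 HS libraries 11 lay below the line of equal change, and the mutant control libraries lay above it.

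Replicates of a group spread widely under HS, and many members moved together. In WT HS replicate 1 was the highest and replicate 3 the lowest library for 9 of 9 members, and WT control replicate 3 was the lowest for 9 of 9. In rs2z36 HS replicate 2 was the lowest for 8 of 9. The mean SD of log2 CPM within groups was 0.58 for CHS1, 0.63 for CHS2 and 0.38 for F3H under HS, beside a median of 0.12 over the 3358 genes with mean levels within the range of these 3. In control the values were 0.32, 0.13 and 0.15, beside 0.11. The late steps and AN1 had 1 to 98 reads per HS library, and the part of counting error in their spread was not tested.

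The genes with the pattern most like that of the late steps were ranked by Pearson's r of log2 CPM with the mean z-score of the 5 late steps over 24 libraries, among the 18488 other genes that averaged 1 CPM or more. The 8 groups shape this measure, and it is given as a description. The first 3 were Solyc12g098590 (r = 0.93), Solyc02g081340 (r = 0.92) and Solyc09g082660 (r = 0.81), which are all on the list of further late and transport genes, followed by Solyc04g016200 (r = 0.78). From the same list Solyc03g025190 ranked 13 (r = 0.72), whereas Solyc09g059170 ranked 10248 (r = -0.055). Over the 12 control libraries Solyc02g081340 came first (r = 0.97), followed by Solyc03g119080 (r = 0.95) and Solyc12g098590 (r = 0.94).

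On the list of phenylpropanoid steps, genes fell in HS under TMM scaling. Of 13 tested genes 8 fell in rs2z36, 8 in rs2z35 36 and 7 in WT and 0 rose in edgeR, beside 10.9%, 12% and 11.6% of all genes that were called lower. Their median log2FC was -1.75 in rs2z36, -1.64 in rs2z35 36 and -1.22 in WT. The phenylalanine ammonia-lyase Solyc05g056170, which starts the pathway, averaged 22.9 ± 4.81 CPM in rs2z36 HS, against 130.0 ± 48.6 CPM in rs2z36 control, and 26.7 ± 3.39 CPM in WT HS, against 83.97 ± 4.61 CPM in WT control (SD, n = 3 each). Its log2FC was -2.50 in rs2z36 and -1.64 in WT (edgeR adjusted p = 8.92e-05 and 6.74e-07). The 4-coumarate:CoA ligase Solyc06g068650, whose product chalcone synthase uses, had a log2FC of -2.08 in rs2z36, -2.35 in rs2z35 36 and -1.61 in WT (edgeR adjusted p = 1.58e-05, 3.68e-08 and 1.47e-06). Solyc05g047530 had 0 reads in all 3 WT HS libraries and averaged 1.14 CPM in WT control, so that it was at least 5.48-fold lower at a floor of 3 reads per library.

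Of the 4 tested genes of other flavonoid steps, 1 rose in rs2z36, Solyc05g052240 (log2FC 1.35, edgeR adjusted p = 0.00551). In rs2z35 36 0 was called, with 3 higher at an unadjusted p below 0.05, as were 30.9% of all genes. In WT 2 rose, Solyc05g052240 (log2FC 1.36, edgeR adjusted p = 0.00101) and Solyc03g115220 (log2FC 1.03, edgeR adjusted p = 0.0069), beside 13.5% of all genes called higher. Solyc09g059170 of the further late genes rose in all 3 tested genotypes, with a log2FC of 1.77 in rs2z36, 1.48 in rs2z35 36 and 1.62 in WT (edgeR adjusted p = 7.94e-05, 1.96e-04 and 1.64e-04). Of the further regulators Solyc10g086270 rose in rs2z35 36 and in WT, with a log2FC of 2.20 and 2.80 (edgeR adjusted p = 0.00248 and 0.00157), at means of 0.801 and 0.825 CPM in HS. Solyc10g086260 rose in WT (edgeR adjusted p = 0.0085), where it had 0 reads in all 3 control libraries and 5, 1 and 5 reads in HS. Its HS mean of 0.251 CPM was 2.20-fold the control floor of 3 reads per library. That mean was close to the HS floor of 0.207 CPM, so that the size of the rise is uncertain. Solyc03g097340 fell in rs2z35 36 and in WT, with a log2FC of -1.01 and -1.08 (edgeR adjusted p = 9.88e-06 and 1.37e-05), and Solyc10g086250 rose in rs2z35 36, with 1.24 (edgeR adjusted p = 0.00861).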

How the data were processed

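Deposited counts of reads per gene from 24 libraries, 3 for each genotype and condition as the labels give them, were used. According to the study's methods the authors sequenced non-directional polyA libraries, mapped reads with STAR to SL4.0 with ITAG4.0, counted reads per gene with htseq-count (HTSeq 0.9.1 per the labels), and adjusted the HS counts with ComBat-Seq, whose batch variable is not given in the sources used here. Without strand, reads from antisense partners count for either gene.

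Genes whose reads summed to 10 or more over the libraries fitted were tested with edgeR 4.0.16 in R 4.3.3 (TMM, quasi-likelihood test, Benjamini-Hochberg adjustment over all tested genes) and called at the study's thresholds (absolute log2FC > 1, adjusted p < 0.01). Mutants were compared with WT on 12 libraries, HS with control on 6, and interactions on 24. The SE was derived from the log2FC and its F statistic. Log2 CPM used a prior count of 2. The tests were checked on simulated data.

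The members and lists were chosen with earlier results of these data known. All 10 members are named; of the wider lists, the genes called in a tested comparison (at most 3 with the largest absolute log2FC per comparison) and the genes most like the late steps. Other genes of the wider and marker lists that are named were chosen after their values were seen. The wider lists (phenylpropanoid, other flavonoid, further late and transport genes, further regulators) and marker lists were assigned from general knowledge of tomato gene IDs, not from the files. No replicate pair matched within sampling noise (chi-square over degrees of freedom, 4.58 to 27.0). No sequences are shown. Only in rs2z36 against WT in control did deviations of same-numbered libraries correlate above 0.1 in all 3 pairs, at 0.26, 0.18 and 0.50. Against rs2z35 the same WT control libraries gave -0.19, -0.043 and -0.40. Libraries of different numbers were not compared and the labels state no pairing, so that pairing by number was not established.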

Additional observations from a re-analysis of the deposited data

How the results depend on the processing

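Members with an unadjusted p below 0.05, and all counts of calls, were recomputed under other settings. The settings were DESeq2 1.42.0, DESeq2 size factors, no filter, filterByExpr, a replicate block, other sets of libraries and, for HS against control, total counts. Of 655 alternative values 595 were labelled the same as the main value. The rule for this label differed between kinds of value, and it did not always follow the limits of a call. In rs2z35 HS against control, which was not tested, AN1 at 0.94 without rs2z35 HS replicate 2 was labelled the same as 1.09. A count of 4 members past 2-fold there, without a filter, was labelled the same as 3. Where calls changed, the cause was not tested. Late steps and AN1 rest on few reads, which limits what could be detected.

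In rs2z36 HS against control 0 members were called with the block, 0 with all 24 libraries in a single fit and 4 with total counts, and 0 to 2 when a library was left out. For all genes these counts were 4683 of 22618, 5648 of 24583, 8455 of 22618 and 4377 to 5146. The 4 members called with total counts were late steps, all lower in HS. In rs2z35 36 HS against control 4 were called with total counts, all of them late steps that were lower in HS, and 0 to 1 with a library left out. For all genes these counts were 9107 of 22570 and 5092 to 5739. In WT HS against control 3 were called with the block, 3 with all 24 libraries and 0 with total counts, and 1 to 4 with a library left out. For all genes these counts were 5628 of 22692, 5860 of 24583, 9418 of 22692 and 5085 to 5563. In rs2z36 against WT in control 2 were called without a filter, 0 with all 24 libraries (DFR adjusted p = 0.0413 in edgeR), 0 with only the 6 libraries compared, and 0 to 1 with a library left out. For all genes these counts were 52 of 26904, 77 of 24583, 9 of 22628 and 7 to 54. DESeq2 called 2 members in WT HS against control, 2 in rs2z36 and 2 in rs2z35 36 against WT control. For all genes its calls were 5603 of 22692, 109 of 23532 and 147 of 23532. In rs2z35 36 HS against control F3H turned to -0.29 and CHS1 to -0.027 with total counts. The late minus early difference of rs2z35 36 HS was -0.19 with a prior count of 0.5.

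The correlation of deviations of same-numbered libraries was above 0.1 in 7 of 30 pairs and ranged from -0.53 to 0.50. In rs2z36 against WT in control it was above 0.1 in all 3 pairs, and with the replicate block DFR stayed called there (log2FC 1.69, edgeR adjusted p = 0.00720), the only member. In the other comparisons not all pairs were above 0.1. Beside the counts above, the block changed no other count of members called by over 1.5 times. Of the members with larger p-values, 51 of 843 values changed sign with settings other than total counts.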
